A study of Mus musculus with 8 samples.

Results

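Vessel genes were followed in inguinal white adipose tissue, the fat under the skin of the groin, of mice with and without the SUMO protease gene Senp2 in adipocytes. The set holds 39 genes of blood and lymphatic vessels: growth factors, their receptors, endothelial surface proteins, transcription factors and genes of arteries, veins and lymphatics. They were found by gene symbol through the RefSeq accession of each array probe, and all 39 were on the array among 20972 named genes. Of these, 37 were measured, meaning that a probe gave signal well above background on 4 or more of the 8 arrays, and Prox1 and Reln were not. In all, 14730 genes were measured. The set was divided by known role into 31 blood vessel genes and 8 lymphatic ones, the lymphatic ones being Vegfc, Flt4, Nrp2, Lyve1, Prox1, Pdpn, Reln and Mmrn1.

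The 4 Senp2-aKO samples came from Senp2flox/flox mice with Adipoq Cre, and the 4 control samples from Senp2flox/flox mice without it, so the controls carried the same floxed alleles. The Adipoq promoter is active in adipocytes, so the design removes Senp2 from adipocytes and not from endothelial cells. All mice began a high-fat diet, with 58% of its calories from fat, at 8 weeks of age and ate it for 12 weeks at 22 to 24 °C. RNA came from the tissue without any sorting step named in the labels, and each sample was hybridised to 1 single-colour Agilent array. In such bulk tissue, fewer cells of a type and less RNA per cell cannot be told apart. The labels describe each sample as from a mouse and do not say outright that the mice differ, so p-values measure only the spread between these samples.

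New blood vessels sprout when VEGF ligands act on receptor tyrosine kinases of endothelial cells, the cells that line vessels. The leading tip cell makes the Notch ligand Dll4, which restrains sprouting in its neighbours, and the same Notch pathway, with ephrin B2, sets arterial identity. Lymphatic vessels grow under Vegfc and its receptor Flt4, and their cells are specified by the transcription factor Prox1. Adipose tissue is densely supplied with capillaries, and its adipocytes are known to secrete Vegfa, which is induced in brown and beige fat during heat production.

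All 8 arrays lay on 1 slide, with the groups in separate rows of it, so group and position on the slide cannot be told apart. Levels below are log2 signal relative to the 75th percentile of each array, and differences are Senp2-aKO minus control on that scale. A gene passed when its limma p, adjusted by the Benjamini-Hochberg method over all 14730 genes, was under 0.05. Senp2 itself lay at 2.12 to 2.22 in Senp2-aKO samples, below the controls at 2.37 to 2.52 (exact permutation p = 0.0286, two-sided, the smallest that 4 against 4 allows), but its limma test did not pass (difference -0.27, SE 0.08, adjusted p = 0.0507). The array of aKO 2 stood apart from the other 7 along the second principal component, which carried 21.1% of the variance. On it, B lymphocyte markers, summed as multiples of the 75th percentile over 7 measured of 9 listed, reached 49.6, against 1.96 to 2.04 on the other 3 Senp2-aKO arrays and 1.71 to 8.04 on control arrays. Skeletal muscle markers passed as higher in 12 of 12 cases (100%, against 7.29% of all genes). Their sums were 389 to 1098 on Senp2-aKO arrays and 28.4 to 92.1 on control arrays. Muscle tissue has endothelium of its own, and the part of these cells in the results below was not tested.

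The general markers of endothelium did not pass, and the vessel genes that did pass went in both directions. Among genes tied to arteries, Efnb2, Dll4 and Hey1 fell, Sox17 rose, and Notch4 and Gja4 did not pass. The apelin receptor Aplnr, the ETS factor Fli1 and the lymphatic ligand Vegfc fell, and the lymphatic surface markers Lyve1 and Pdpn rose. Of the 37 measured vessel genes, 3 rose (8.11%), against 7.29% of all genes tested, and 6 fell (16.2%), against 7.12% of all genes. The risen genes were Sox17, Lyve1 and Pdpn, and the fallen ones Vegfc, Aplnr, Fli1, Efnb2, Dll4 and Hey1. Together they were 9 of 37 (24.3%), against 14.4% of all genes. The groups did not overlap in 5 vessel genes that were higher and 7 that were lower, against 11.2% higher and 15.1% lower (26.3% together) of all genes. The median difference was -0.08 over the 37 genes and -0.02 over all genes, with 15 vessel genes above 0 and 22 below. Under the 16 other settings and omissions of an array that were run, Efnb2 and Pdpn passed in every case. The count of fallen vessel genes was 2 without aKO 1, 10 without aKO 3, 1 without aKO 4, 2 without control 1, control 2 or control 4, and 1 without control 3. That of risen ones was 2 without aKO 4, control 3 or control 4 and 1 without control 1. Without aKO 2 the counts were 4 risen and 6 fallen.

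**Figure D1:**
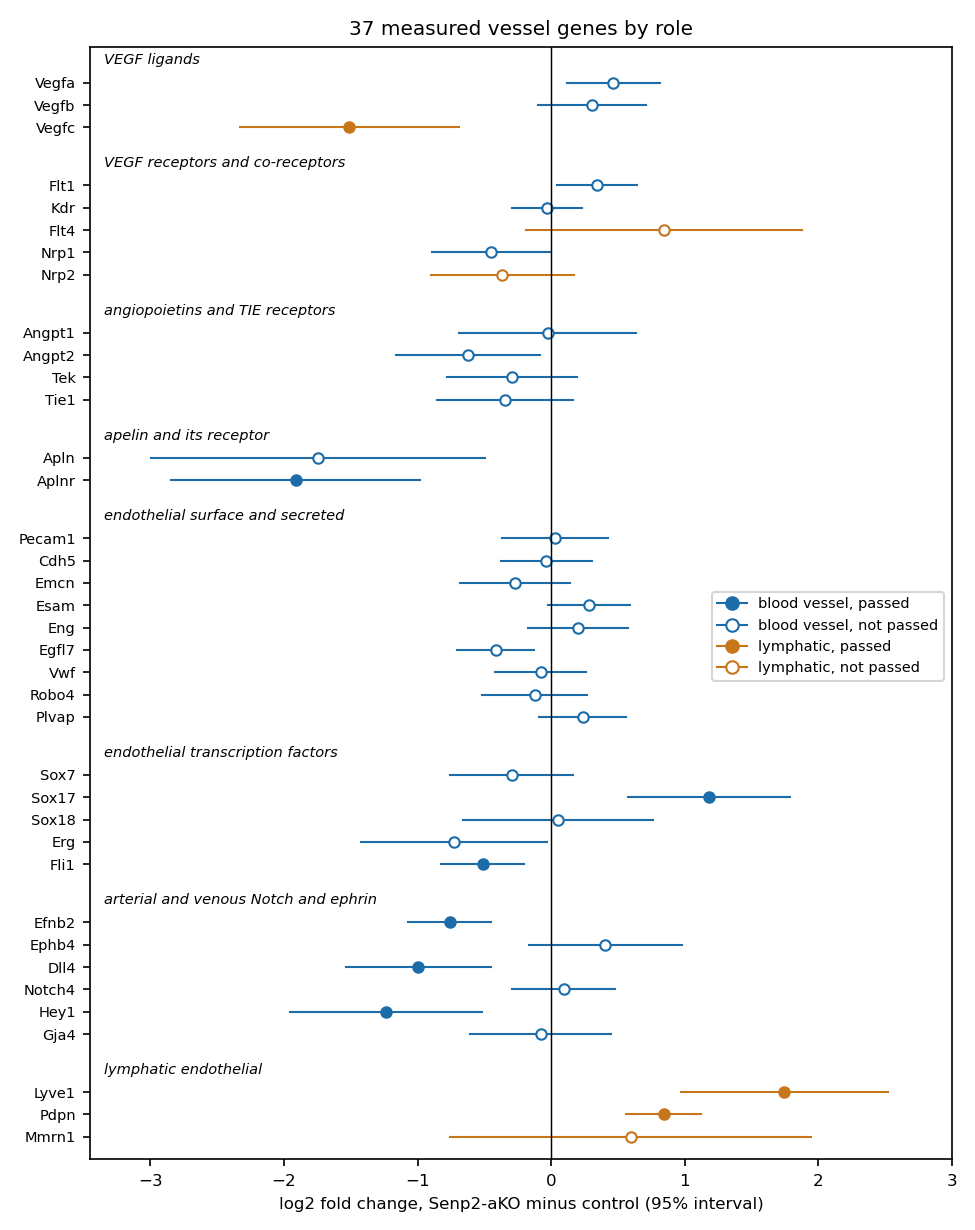
Log2 fold change (Senp2-aKO minus control, horizontal axis) of the 37 measured vessel genes in groups by role, with bars for the 95% interval; blue marks blood vessel genes, orange lymphatic ones, and filled points those that passed the limma test. Filled points lie at -1.91 (Aplnr) to 1.75 (Lyve1), and the endothelial surface group has none.

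General endothelial surface and secreted proteins set the frame. Cdh5, the cadherin of endothelial junctions, lay at 3.39, 3.23, 3.8 and 3.73 in Senp2-aKO samples, against 3.42, 3.68, 3.68 and 3.5 in controls. Pecam1, an adhesion molecule of all endothelium, lay at 0.18, 0.31, 0.86 and 0.65 in Senp2-aKO samples, against 0.24, 0.63, 0.65 and 0.36 in controls. In both genes the groups overlapped throughout. The fold change of Cdh5 was 0.976 (95% interval 0.773 to 1.23) and that of Pecam1 1.02 (0.774 to 1.35), so a change of 1.5-fold either way lies outside both intervals. None of the 9 genes of this group passed in limma. Before adjustment, 2171 higher and 2586 lower genes of all 14730 had p under 0.05, and in this group only 1 did. This was Egfl7, a secreted endothelial factor, at 6.04 to 6.51 in Senp2-aKO samples and 6.60 to 6.83 in controls (difference -0.41, SE 0.13, adjusted p = 0.0615), and it passed under quantile normalisation and the normexp background model. The remaining members had differences of -0.27 to 0.29: Emcn, a sialomucin of capillaries and veins, Esam, a junction molecule, Eng, a co-receptor for TGF-beta ligands, Vwf, the clotting factor stored in endothelial cells, Robo4, a guidance receptor, and Plvap, which forms the diaphragms of fenestrae and caveolae. The 7 markers fixed for endothelium, Pecam1, Cdh5, Kdr, Tek, Tie1, Erg and Cldn5, were all well above background, with a median difference of -0.03. Of these, 5 lay below 0, and 0 of 7 passed, against 14.4% of all genes, so a count of 0 in so short a list says little. On aKO 2, Cdh5 and Robo4 had their lowest value of all 8 arrays.

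Among the VEGF ligands, Vegfc differed most. Vegfc, the growth factor of lymphatic vessels, lay at -0.99, -1.20, 0.35 and -0.31 in Senp2-aKO samples, against 1.22, 1.21, 1.09 and 0.36 in controls. The groups did not overlap, but aKO 3 and control 4 lay next to each other. It was 2.85-fold lower in Senp2-aKO fat (95% interval 1.61 to 5.03, difference -1.51, SE 0.36, limma adjusted p = 0.0290). The call ended without aKO 1, aKO 4, control 1, control 2 or control 3 (adjusted p from 0.0560 to 0.0829), and with the replicate number as a block (0.0660).

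Vegfa, the main inducer of blood vessel growth, was read by 2 probes that name different RefSeq transcripts of the gene. The brighter probe lay at 3.82, 4.0, 3.68 and 4.33 in Senp2-aKO samples, against 3.6, 3.48, 3.6 and 3.29 in controls. The other lay at 2.85, 3.34, 2.67 and 3.26 in Senp2-aKO samples, against 2.24, 2.10, 2.18 and 1.74 in controls. On both probes every Senp2-aKO array lay above every control. The brighter probe, which stood for the gene, did not pass (difference 0.47, SE 0.15, adjusted p = 0.0768). The other passed when all 30508 kept probes were tested (0.96, SE 0.18, adjusted p = 0.0197), where 9.83% of probes passed, and the mean of both passed as a gene (0.71, adjusted p = 0.0268). The brighter probe passed without aKO 3 (0.0463) and with array weights (0.0389). Vegfb, a ligand of Flt1 that is abundant in oxidative tissue, lay at 3.44 to 4.18 in Senp2-aKO samples and 3.30 to 3.72 in controls (difference 0.31, SE 0.18, adjusted p = 0.264). It passed only without aKO 2, which held the lowest of the 4 Senp2-aKO values.

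Of the 5 VEGF receptors and co-receptors 0 passed in limma, and before adjustment 1 higher gene (Flt1) and 1 lower gene (Nrp1) had p under 0.05. Over all 14730 genes, 2171 higher and 2586 lower ones did. Kdr, the main signalling receptor for Vegfa, lay at 3.31, 3.27, 3.20 and 3.45 in Senp2-aKO samples, against 3.21, 3.54, 3.44 and 3.16 in controls. The fold change was 0.980 (95% interval 0.818 to 1.17), and the second probe gave 0.13 (SE 0.12) in place of -0.03 (SE 0.11) for the difference. Flt1, a high-affinity receptor that also acts as a decoy for Vegfa, lay at 4.29 to 4.55 in Senp2-aKO samples, all above the controls at 3.74 to 4.22 (difference 0.34, SE 0.13, adjusted p = 0.111). Nrp1, a co-receptor for Vegfa and semaphorins, lay below every control in all 4 Senp2-aKO samples (0.04 to 0.96, against 1.0 to 1.16 in controls, adjusted p = 0.154). Nrp2, a co-receptor for Vegfc, did not pass on its brighter probe (-0.36, SE 0.23, adjusted p = 0.315), except without aKO 3, while its other probe, which names another transcript, was lower on every Senp2-aKO array (0.05 to 0.38, against 0.54 to 1.07 in controls) and passed over all probes (-0.60, SE 0.14, adjusted p = 0.0381).

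**Figure D2:**
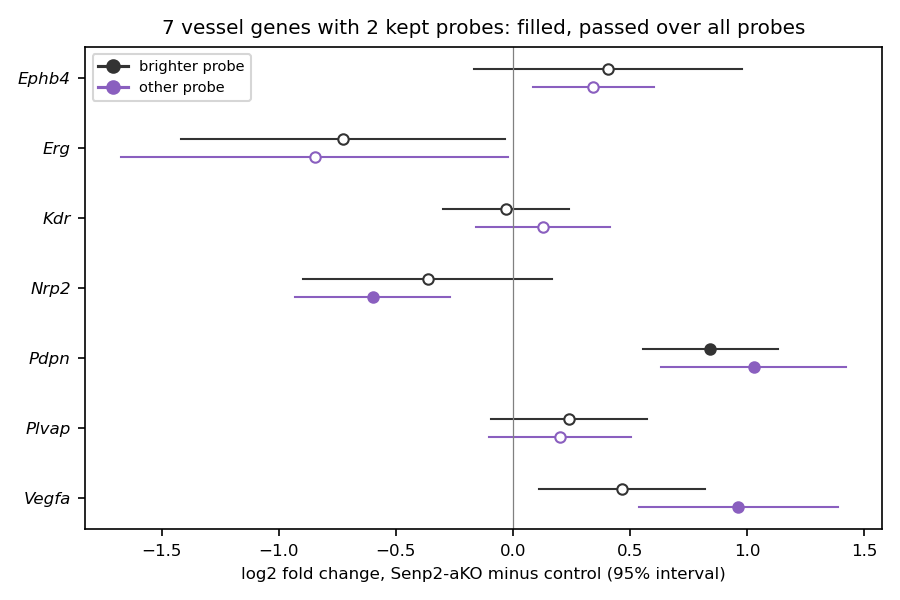
Log2 fold change with 95% interval (horizontal axis) for both kept probes of the 7 vessel genes that had more than 1; black is the brighter probe and purple the other, and filled points passed over all kept probes. The probes of Kdr lie on either side of 0, and for Nrp2 and Vegfa only the dimmer probe passed.

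Angiopoietins act on the receptor Tek to keep vessels stable (Angpt1) or to loosen them for remodelling (Angpt2), and Tie1 modulates that receptor. Of these 4 genes 0 passed in limma, and before adjustment only Angpt2 had p under 0.05, as did 2171 higher and 2586 lower genes of all 14730. Angpt2 lay at 0.04, 0.37, 1.04 and 0.47 in Senp2-aKO samples, against 0.63, 1.28, 1.2 and 1.3 in controls (difference -0.62, SE 0.24, adjusted p = 0.112). Only aKO 3 reached into the range of the controls, and without it Angpt2 passed. Angpt1, Tek and Tie1 had overlapping groups and differences of -0.02, -0.29 and -0.35.

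Apelin and its receptor had the lowest differences of the set. Apln encodes a peptide made by endothelial tip cells and by adipocytes, and Aplnr its receptor, which is known from sprouting and venous endothelium. Aplnr lay at -0.93, -2.35, -0.17 and -1.07 in Senp2-aKO samples, against 0.74, 0.53, 1.10 and 0.76 in controls. All Senp2-aKO samples lay below all controls, with aKO 2 lowest and aKO 3 nearest to them. Aplnr was 3.76-fold lower (95% interval 1.97 to 7.18, difference -1.91, SE 0.41, limma adjusted p = 0.0210). The call ended without aKO 4, control 1, control 3 or control 4 (adjusted p from 0.0504 to 0.0607). Apln lay at -0.03, -1.47, 1.34 and 0.25 in Senp2-aKO samples, against 1.09, 1.84, 1.84 and 2.31 in controls. The aKO 3 value lay above control 1, and the test did not pass (difference -1.75, SE 0.54, adjusted p = 0.0668), although it did without aKO 3 (0.0216), with array weights (0.0396) and with the normexp background model (0.0439).

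Endothelial transcription factors did not move together. Sox17, a factor of arterial endothelium, lay at 1.91, 2.31, 2.74 and 2.88 in Senp2-aKO samples, against 1.32, 1.6, 1.5 and 0.70 in controls. The groups did not overlap, and it rose 2.27-fold (95% interval 1.49 to 3.46, difference 1.18, SE 0.26, limma adjusted p = 0.0245). Its second probe was left out because its spot on control 1 was marked as an outlier, and on the other arrays it lay at 2.26 to 3.34 in Senp2-aKO samples and 1.68 to 2.54 in controls. The Sox17 call ended without aKO 4, control 1, control 3 or control 4 (adjusted p from 0.0501 to 0.0674) and with the replicate block (0.0676). The related factors Sox7 and Sox18 did not pass (-0.30 and 0.05), and the difference between Sox17 and them was not tested.

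Fli1 and Erg are ETS factors that maintain endothelial identity. Fli1, which blood cells express too, lay at 1.11, 1.33, 1.57 and 1.15 in Senp2-aKO samples, against 1.68, 1.99, 1.92 and 1.63 in controls. All Senp2-aKO samples lay below all controls, and Fli1 fell 1.43-fold (95% interval 1.15 to 1.77, difference -0.51, SE 0.14, limma adjusted p = 0.0414). The call held only without aKO 2 or aKO 3 among the 8 omissions (adjusted p from 0.0588 to 0.108 in the others), and it ended with no filter on background (0.0669). Erg did not pass on either probe (-0.73 and -0.85, adjusted p = 0.160 and 0.169 over all probes), with aKO 3 above the other 3 Senp2-aKO samples on both, and its brighter probe passed without aKO 3.

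**Figure D3:**
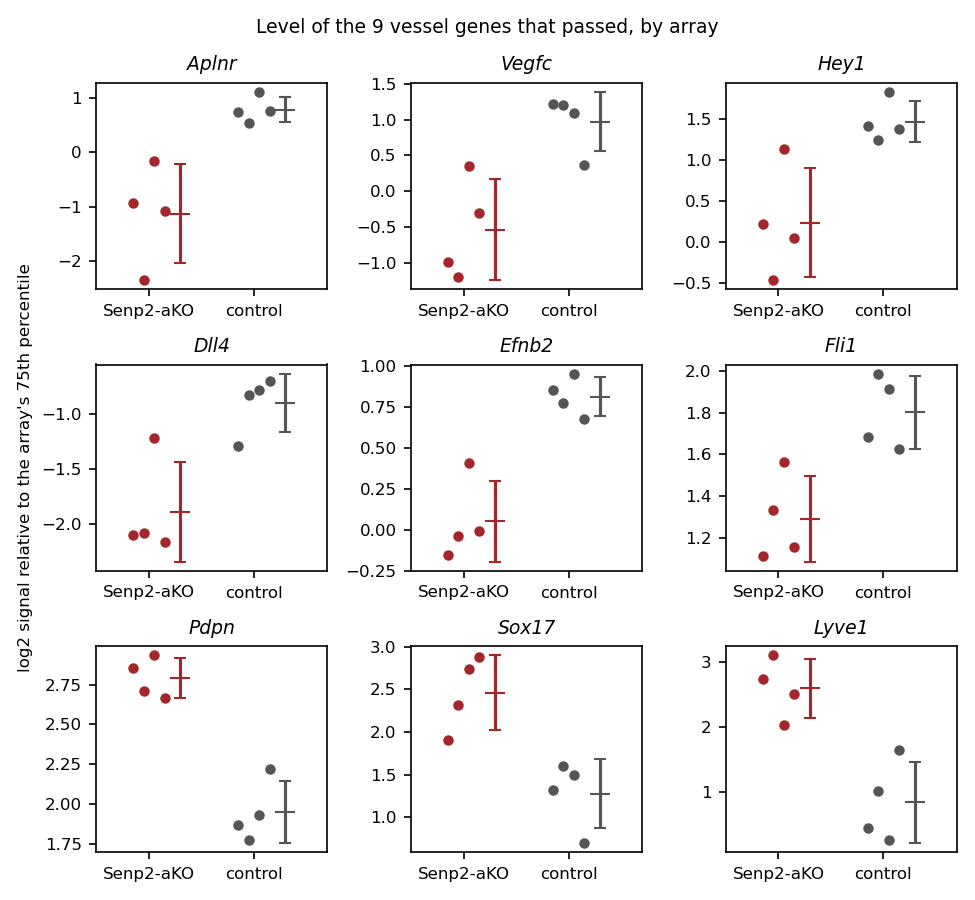
Log2 signal relative to the array's 75th percentile (vertical axis, separate scale per gene) of the 9 vessel genes that passed; each point is 1 array, and the bar beside each group is the mean ± SD (n = 4). Only in Dll4 does a Senp2-aKO point, aKO 3 at -1.21, reach the controls.

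Of the 6 genes listed under Notch and ephrin signalling of arteries and veins, 3 fell (50%, against 7.12% of all genes) and 0 rose (7.29% of all genes). The arterial factor Sox17, listed with the transcription factors, rose (1.18). Efnb2, the ephrin of arterial endothelium, lay at -0.16, -0.04, 0.41 and -0.01 in Senp2-aKO samples, against 0.85, 0.77, 0.95 and 0.67 in controls. All Senp2-aKO samples lay below all controls. Efnb2 fell 1.69-fold (95% interval 1.36 to 2.10, difference -0.76, SE 0.14, limma adjusted p = 0.0132), and its call held in every alternative that was run.

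Dll4, the Notch ligand of tip cells and arteries, lay at -2.10, -2.08, -1.21 and -2.17 in Senp2-aKO samples, against -1.29, -0.82, -0.78 and -0.70 in controls. The samples aKO 1, aKO 2 and aKO 4 lay together below all controls, and aKO 3 lay just above control 1. Dll4 fell 1.99-fold (95% interval 1.37 to 2.90, difference -0.99, SE 0.24, limma adjusted p = 0.0295). The call ended without aKO 1, aKO 4, control 2, control 3 or control 4 (adjusted p from 0.0726 to 0.0798), and the difference was -0.64 with the normexp background model.

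Hey1, a transcription factor induced by Notch, lay at 0.21, -0.47, 1.13 and 0.05 in Senp2-aKO samples, against 1.42, 1.25, 1.83 and 1.38 in controls. The sample aKO 3 again lay nearest to the controls, below all of them. Hey1 fell 2.36-fold (95% interval 1.43 to 3.88, difference -1.24, SE 0.31, limma adjusted p = 0.0357), and among the 8 omissions the call held only without aKO 2 or aKO 3 (adjusted p from 0.0669 to 0.0957 in the others). It also ended with no filter on background (0.0588). Notch4, the endothelial Notch receptor, and Gja4, a gap junction protein of arteries, had overlapping groups and differences of 0.09 and -0.08. Ephb4, the venous receptor for Efnb2, had overlapping groups on its brighter probe (difference 0.41, SE 0.25, adjusted p = 0.296). On its other probe every Senp2-aKO array (-0.87 to -0.56) lay above every control (-1.26 to -0.98), with a difference of 0.34 (SE 0.11, limma adjusted p = 0.0905 over all probes). None of these 3 genes passed.

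The deposited files hold no sequence, so promoters were read from RefSeq (GRCm38.p6), where 25 of the 39 genes had a window. Shown are the 250 bases upstream of the start of 2 genes that fell together, Efnb2 (chr8:8661243-8661492, minus strand) and Dll4 (chr2:119325534-119325783, plus strand), and of 2 lymphatic genes that passed in opposite directions, Vegfc (chr8:54077282-54077531, plus strand) and Pdpn (chr4:143299565-143299814, minus strand). All are written 5′ to 3′ on the strand of the gene, and capitals mark every match to the motifs named below.
Efnb2: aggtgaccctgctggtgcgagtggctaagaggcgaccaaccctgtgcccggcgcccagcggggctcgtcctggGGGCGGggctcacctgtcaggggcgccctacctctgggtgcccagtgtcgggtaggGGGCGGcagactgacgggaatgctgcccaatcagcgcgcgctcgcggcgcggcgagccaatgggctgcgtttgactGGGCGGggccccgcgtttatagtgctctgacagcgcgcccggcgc
Dll4: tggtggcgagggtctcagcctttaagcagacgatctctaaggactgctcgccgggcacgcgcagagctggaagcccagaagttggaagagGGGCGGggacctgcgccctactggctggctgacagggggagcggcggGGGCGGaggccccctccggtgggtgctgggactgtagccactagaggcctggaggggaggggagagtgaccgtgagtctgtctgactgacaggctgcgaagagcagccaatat
Vegfc: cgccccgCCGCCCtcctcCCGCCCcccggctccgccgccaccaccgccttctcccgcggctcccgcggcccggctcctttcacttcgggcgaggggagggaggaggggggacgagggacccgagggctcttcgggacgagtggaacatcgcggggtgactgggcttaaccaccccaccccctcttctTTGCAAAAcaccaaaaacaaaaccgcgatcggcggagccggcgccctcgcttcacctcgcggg
Pdpn: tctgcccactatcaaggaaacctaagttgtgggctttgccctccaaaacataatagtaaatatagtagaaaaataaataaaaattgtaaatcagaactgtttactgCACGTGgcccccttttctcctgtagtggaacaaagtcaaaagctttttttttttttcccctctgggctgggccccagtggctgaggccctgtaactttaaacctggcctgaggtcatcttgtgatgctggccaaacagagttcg

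These 4 windows were searched on both strands for TGGGAA, bound by the Notch effector RBPJ, AGGAAG, bound by ETS factors, ACAATG, bound by SOX factors, TTGCNNAA, bound by C/EBP factors, ACGTG, bound by hypoxia-inducible factors, and the GC box GGGCGG. Efnb2 held 3 GC boxes, beginning 177, 121 and 45 bases before the start, and Dll4 held 2, at 160 and 113 bases. Vegfc held 2 GC boxes on the opposite strand, at 243 and 232 bases, and 1 match to the C/EBP motif at 63 bases. Pdpn held the palindrome CACGTG, which gives ACGTG once on each strand, overlapping, at 144 and 143 bases. Of 32851 RefSeq promoter windows of this length, 32.7% held the GC box, 9.56% the C/EBP motif and 16.6% ACGTG. The RBPJ, ETS and SOX motifs, found in 21.6%, 29.5% and 10.7% of windows, did not occur in these letters of the 4 genes, which says nothing of the factors themselves. A match is a description and not a binding site.

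Lymphatic vessel genes went in different directions. Of the 6 measured, 2 rose (33.3%, against 7.29% of all genes) and 1 fell (16.7%, against 7.12%), and their median difference was 0.72, against -0.08 over the 31 blood vessel genes and -0.02 over all genes. Lyve1, the hyaluronan receptor of lymphatic endothelium, which is also made by resident macrophages, lay at 2.74, 3.10, 2.02 and 2.50 in Senp2-aKO samples, against 0.45, 1.02, 0.26 and 1.64 in controls. All Senp2-aKO samples lay above all controls, though aKO 3 and control 4 were close. Lyve1 rose 3.36-fold (95% interval 1.96 to 5.74, difference 1.75, SE 0.34, limma adjusted p = 0.0158), and the call ended only without control 1 (adjusted p = 0.0524).

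Of 8 measured macrophage markers 1 rose (12.5%, against 7.29% of all genes), Cd163 (difference 1.04, SE 0.21, adjusted p = 0.0192), named after its value was seen. The markers summed to 114 to 143 on Senp2-aKO arrays and 101 to 157 on control arrays. Their mean log2 level was 2.51, 2.82, 2.29 and 2.29 on the Senp2-aKO arrays, against 2.16, 1.85, 2.38 and 2.16 on the control arrays. Differences lay above 0 for 6 of the 8 markers and below 0 for 2. The Cd163 call ended without control 1 (adjusted p = 0.0616). The part of macrophages in the Lyve1 difference was not tested.

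Pdpn, podoplanin, marks lymphatic endothelium and also stromal, epithelial and mesothelial cells. It lay at 2.85, 2.71, 2.93 and 2.67 in Senp2-aKO samples, against 1.87, 1.77, 1.93 and 2.22 in controls. The groups stood well apart, and Pdpn rose 1.79-fold (95% interval 1.48 to 2.18, difference 0.84, SE 0.12, limma adjusted p = 0.0070). Its second probe gave a difference of 1.03 (SE 0.17, adjusted p = 0.0134 over all probes). Of 7 markers of adipose progenitors, which are stromal cells, 2 rose (28.6%, against 7.29% of all genes), Dpp4 (1.23) and Ly6a (0.97), both named after their values were seen. The 7 summed to 1087 to 1363 on Senp2-aKO arrays and 772 to 977 on control arrays. Of 6 measured epithelial markers 3 rose (50%, against 7.29% of all genes), Krt5 (1.37), Krt14 (0.90) and Krt19 (1.01), named likewise. The 6 summed to 1.12 to 4.0 on Senp2-aKO arrays and 0.566 to 1.0 on control arrays, and Epcam, Krt8 and Cdh1 were not well above background. Krt19 lost its call without aKO 1, aKO 2, aKO 3, control 1, control 2 or control 3 (adjusted p from 0.0579 to 0.106), with median centring, with no filter on background and with the replicate block. The part of these cells in the Pdpn difference was not tested.

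The more specific lymphatic markers were dim. Prox1 and Reln, a glycoprotein secreted by lymphatic endothelium, were not well above background on any of the 8 arrays. Flt4, the receptor for Vegfc, lay at -4.14, -1.93, -3.89 and -3.86 in Senp2-aKO samples, against -4.44, -4.37, -4.31 and -4.08 in controls. Mmrn1, a multimerin of lymphatic endothelium and platelets, lay at -1.93, 0.08, -2.99 and -1.57 in Senp2-aKO samples, against -2.03, -1.58, -2.62 and -2.56 in controls. In both genes aKO 2 was far above the other 7 arrays, which overlapped between the groups. Neither passed (0.85, SE 0.45, adjusted p = 0.231 for Flt4, and 0.60, SE 0.59, adjusted p = 0.519 for Mmrn1), and without aKO 2 the differences were 0.34 and 0.04. The same array carried the B lymphocyte sum given above and a T lymphocyte sum of 51.5, against 7.91 to 9.27 on the other Senp2-aKO arrays and 8.54 to 12.4 on control arrays. Markers of lymph node stroma summed to 14.7 on aKO 2, against 1.94 to 11 on the other Senp2-aKO arrays and 1.09 to 2.67 on control arrays, over 4 measured of 7 listed, with Glycam1 and Tnfsf11 not well above background. Platelet markers, over 5 measured of 7, summed to 57.1 to 70.7 on Senp2-aKO arrays and 52.9 to 62.7 on control arrays, and on aKO 2 to 57.1. Pf4, the brightest of them and chosen for mention with its values in view, makes up most of that sum. Itga2b, the platelet integrin, lay at -2.39 on aKO 2, above the other Senp2-aKO arrays at -4.04 to -3.54 and the control arrays at -4.40 to -3.54 (chosen for mention with its values in view). The part of lymph node tissue and of platelets was not tested. Without aKO 2 the median lymphatic difference was 0.19, with 2 risen and 1 fallen as before, where 19.2% of all genes passed in either direction.

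**Figure D4:**
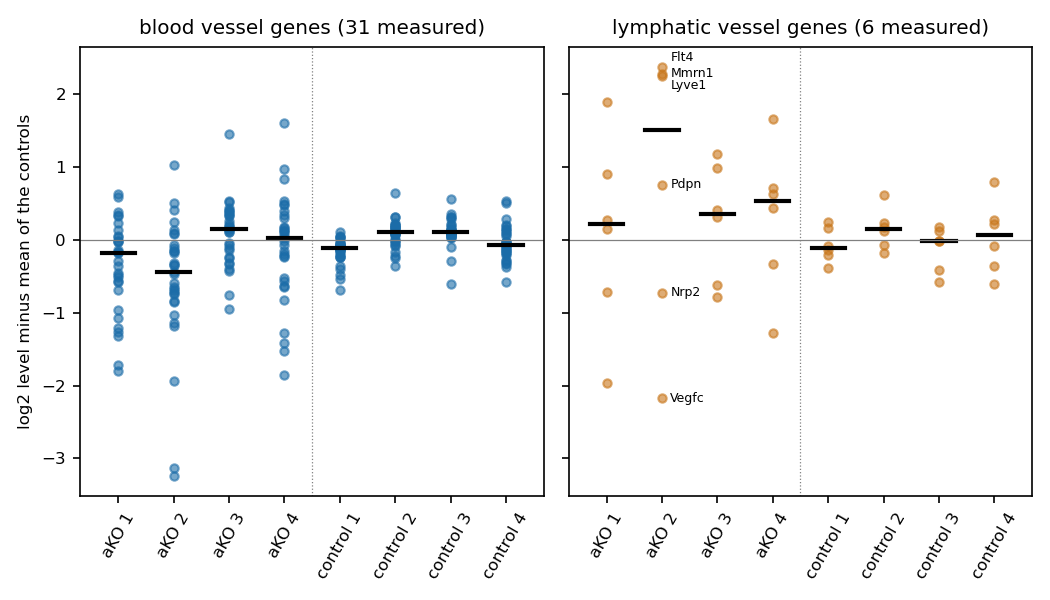
Log2 level of each measured vessel gene minus its mean over the controls (vertical axis), by array; left, 31 blood vessel genes, right, 6 lymphatic ones, with a black bar for the median of each array. The lymphatic median is 1.51 on aKO 2 and 0.21 to 0.54 on the other Senp2-aKO arrays, and the blood vessel median is -0.44 on aKO 2 and -0.18 to 0.15 on the others.

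By array, the median deviation of blood vessel genes from the control mean was -0.18, -0.44, 0.15 and 0.03 on the Senp2-aKO arrays, against -0.11, 0.10, 0.11 and -0.07 on the control arrays. That of lymphatic genes was 0.21, 1.51, 0.36 and 0.54 on the Senp2-aKO arrays, against -0.11, 0.15, -0.01 and 0.07 on the control arrays. The lymphatic medians thus lay above those of the controls on all 4 Senp2-aKO arrays, with aKO 2 far above and aKO 1 (0.21) close to control 2 (0.15). The blood vessel medians overlapped. Deviations were taken from the control mean, which by itself draws the control medians towards 0. Of the 6 lymphatic genes, 2 (Vegfc and Nrp2) had differences below 0, so the medians do not describe a rise of every gene. Vessel genes also varied more within a group than genes in general. The median SD was 0.38 over Senp2-aKO samples and 0.20 over controls for vessel genes, against 0.24 and 0.14 for all genes. The most variable were Mmrn1, Apln and Flt4, with an SD of 1.27, 1.16 and 1.02 over Senp2-aKO samples.

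Further vessel genes were read from lists made for this tissue. Of 12 measured arterial genes 3 fell (25.0%, against 7.12% of all genes) and 0 rose (7.29% of all genes): Unc5b, a netrin receptor of tip cells and arteries (difference -1.0, SE 0.20, limma adjusted p = 0.0182), Heyl, a Notch-induced transcription factor (-1.04, SE 0.25), and Gja5, a connexin of arteries (-0.97, SE 0.26). Unc5b lay at -0.20 to 0.78 in Senp2-aKO samples, below the controls at 1.04 to 1.48. The median of the list was -0.30. The 5 genes with values above 0, named with those values in view, were Cxcl12, Jag2, Sema3g, Notch1 and Stmn2. Groups did not overlap in 2 genes that were higher and 4 that were lower, against 11.2% and 15.1% of all genes. The higher ones were Cxcl12 (0.40, limma adjusted p = 0.0602) and Sema3g (0.30, adjusted p = 0.163), and neither passed. Unc5b lost its call without control 1 or control 3 (adjusted p 0.0534 and 0.0565), Heyl without aKO 1 or any control (0.0567 to 0.0761), and Gja5 in every omission but that of aKO 3 (0.0515 to 0.107) and with no filter on background (0.0674). Of 6 measured venous genes 1 rose (16.7%, against 7.29% of all genes), Ackr1, the chemokine-binding receptor of venules (0.59, SE 0.15, adjusted p = 0.0340). It passed only without aKO 2 or aKO 4 among the omissions (0.0523 to 0.0970 in the others) and not with no filter on background (0.0563). Of 12 further lymphatic genes 1 rose (8.33%, against 7.29% of all genes), Fgl2 (1.17, SE 0.18, adjusted p = 0.0085), which macrophages also make. The median of this list was 0.30, and -0.01 without aKO 2.

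The list of genes for the cells that wrap vessels had the lowest median of the further vessel lists. Of 13 genes listed for pericytes and mural cells, the contractile cells around capillaries and larger vessels, 5 fell (38.5%, against 7.12% of all genes) and 0 rose (7.29% of all genes). The other 8 did not pass, among them Rgs5 (-0.70, limma adjusted p = 0.0556) and Abcc9 (-0.15, adjusted p = 0.276). The median of the 13 was -0.51, and 12 of 13 lay below 0, as did 7768 of all 14730 genes. Mcam went the other way (0.28, limma adjusted p = 0.0743), with every Senp2-aKO sample (5.56 to 5.69) above every control (5.21 to 5.46). Kcnj8, a potassium channel of pericytes, lay at -1.30, -1.34, -1.02 and -0.79 in Senp2-aKO samples, against -0.12, -0.48, 0.07 and -0.06 in controls (difference -0.97, SE 0.17, limma adjusted p = 0.0117). Pdgfrb, the receptor that recruits pericytes and is also found on fibroblasts, lay at 1.55 to 2.03 in Senp2-aKO samples and 2.46 to 2.69 in controls (-0.71, SE 0.13, adjusted p = 0.0132). All Senp2-aKO samples lay below all controls in both genes. The ligands Pdgfa (-1.11) and Pdgfb (-0.51), which the list counts among the 5, fell too, as did Notch3 (-0.78), the Notch receptor of mural cells. Which cells made these ligands was not tested, so the count of fallen genes is not one of mural cell markers alone. Pdgfb, Notch3, Rgs5, Abcc9 and Mcam were chosen for mention with their values in view. The count of fallen genes was 7 without aKO 3, 3 without aKO 4, control 3 or control 4, and 2 without control 1. In either direction, 15.9% of all genes passed without aKO 3 and 7.87% without aKO 4. The shares were 4.85% without control 1, 6.59% without control 3 and 8.30% without control 4, against 14.4% with all arrays. Pdgfa lost its call without control 1 (adjusted p = 0.0551), Pdgfb without aKO 4, control 1, control 3 or control 4 (0.0513 to 0.0725) and with the replicate block, and Notch3 in every omission but those of aKO 2 and aKO 3 (0.0615 to 0.0807). Of 7 measured smooth muscle genes 1 rose (14.3%, against 7.29% of all genes) and 1 fell (14.3%, against 7.12%). Des rose (2.27), which skeletal muscle makes in quantity, and Myocd, a cofactor of smooth muscle genes, fell (-1.29). Myocd lost its call without control 1, control 2 or control 3 (0.0502 to 0.0564), with the replicate block and with the normexp background model, where its difference was -0.17.

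**Figure D5:**
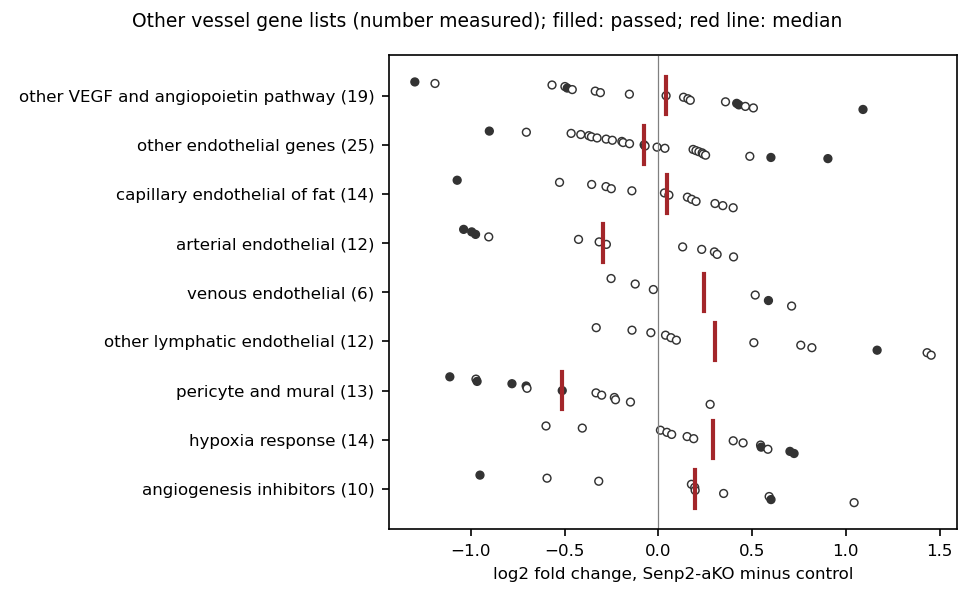
Log2 fold change (Senp2-aKO minus control) of each measured gene in 9 further vessel lists, with the number of genes in brackets; filled points passed the limma test and the red line is the list's median. Pericyte and mural genes have the lowest median, -0.51, and 3 arterial genes passed, all below 0.

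Genes of fat capillaries and other endothelial genes were listed as well. Of 14 capillary genes 0 rose (7.29% of all genes) and 1 fell (7.14%, against 7.12% of all genes). This was Meox2, a homeobox factor of fat and muscle capillaries that is made by other mesodermal cells too. It lay at 1.84, 1.55, 1.58 and 1.43 in Senp2-aKO samples, against 2.54, 2.71, 2.91 and 2.52 in controls (difference -1.07, SE 0.13, limma adjusted p = 0.0045). The list median was 0.04. The list also holds Fabp4, Lpl, Cd36, Fabp5 and Aqp7, chosen for mention with their values in view. Which cells of the bulk tissue made these transcripts was not tested, so the median is not a reading of capillaries alone. Of 25 other endothelial genes 2 rose, the junction regulator Rasip1 (0.90, SE 0.11, adjusted p = 0.0049) and Arhgef15 (0.60), a guanine nucleotide exchange factor, and 1 fell, Myct1 (-0.90). These 3 are 12.0% of the list, against 14.4% of all genes. The Arhgef15 call ended without aKO 1, aKO 4, control 1 or control 3 (adjusted p from 0.0526 to 0.0661), and that of Myct1 without aKO 1 or any control (0.0862 to 0.106), with the replicate block and with no filter on background.

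Within the VEGF, semaphorin and angiopoietin pathway, 3 of 19 measured genes rose (15.8%, against 7.29% of all genes) and 2 fell (10.5%, against 7.12%). Sema3f, a semaphorin that binds Nrp2, lay at 4.22, 4.41, 3.95 and 4.18 in Senp2-aKO samples, against 3.10, 3.17, 3.30 and 2.84 in controls, a rise of 2.13-fold (difference 1.09, SE 0.14, limma adjusted p = 0.0048). Plxnd1, a semaphorin receptor of endothelium, lay at 3.51, 3.19, 4.35 and 3.68 in Senp2-aKO samples, against 5.0, 4.88, 5.11 and 4.93 in controls, 2.46-fold lower (-1.30, SE 0.23, adjusted p = 0.0122). Neither had overlapping groups. Hif1a, a subunit of the hypoxia-inducible factor, fell (-0.49, SE 0.11, adjusted p = 0.0270), and the call ended without aKO 1, aKO 4, control 1, control 3 or control 4 (0.0608 to 0.0837). The other risen genes, chosen for mention with their values in view, were the plexin Plxna2 (0.43) and Angptl4 (0.42), a lipase inhibitor. Each passed in 1 of the 8 omissions, that of aKO 2 (adjusted p up to 0.116 and 0.108 in the rest), and both calls ended with median centring, no filter on background and the replicate block. That of Angptl4 ended also with the normexp background model and under quantile normalisation, where its difference was 0.16.

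Of 14 genes of the hypoxia response, to which Vegfa belongs as well, 3 rose (21.4%, against 7.29% of all genes). None fell (7.12% of all genes), and the median was 0.29. Ndrg1 (0.72, SE 0.11, limma adjusted p = 0.0076) is a stress-induced gene, Slc2a1 (0.55, SE 0.10, adjusted p = 0.0127) the basal glucose transporter, and P4ha1 (0.70, SE 0.17, adjusted p = 0.0340) a collagen prolyl hydroxylase. Without aKO 2, 7 rose and 1 fell, where 19.2% of all genes passed in either direction, against 14.4% with all arrays. Among the omissions P4ha1 passed in that of aKO 2 alone (0.0585 to 0.0931 in the others). Its call also ended with median centring (0.0796), no filter on background (0.0563) and the mean of its probes (0.0602). Of 10 inhibitors of angiogenesis 1 rose (10%, against 7.29% of all genes), the metalloproteinase inhibitor Timp3 (0.60, SE 0.11, adjusted p = 0.0139). Another 1 fell (10%, against 7.12%), Col18a1 (-0.95, SE 0.20, adjusted p = 0.0193), the collagen that yields endostatin. The Col18a1 call ended without aKO 4, control 1 or control 4 (0.0503 to 0.0609) and with the replicate block.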

How the data were processed

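Total RNA was labelled with Cy3 (0.5 µg per sample) and read on single-colour arrays. Per the file headers, the deposited processed signal and the median spot and background signals are intensity values from Agilent Feature Extraction 11.5.1, named also in the submitters' processing notes, with background subtracted and trends within the array removed from the processed signal, and arrays left unscaled against each other. Deposited flags for background, saturation and outliers hold 0 or 1 and were taken as another kind of value (unit: other). The deposited normalised matrix was not used, because the names of its 8 sample columns match no label.

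The log2 processed signal was set against the 75th percentile of each array, and spots of a probe were averaged without outlier spots. This scaling assumes that most genes do not change. The 75th percentile signal itself was lower on every Senp2-aKO array (324 to 382) than on every control array (408 to 446, exact permutation p = 0.0286). Every difference given here therefore depends on the scaling, and the cause of the lower signal was not tested. Probes well above background on at least 4 of 8 arrays were kept (30508 of 55681), a single probe, that with the highest mean, stood for each of 14730 genes, and probes were named through RefSeq accessions (GRCm38.p6), which 27656 matched. limma 3.58.1 in R 4.3.3 compared the groups without covariates, and an exact permutation test over the 70 assignments served for single values. No spot was saturated, and the number of arrays limits the precision. On simulated arrays with 50 of 14730 genes changed at each size, the test recovered 64% where the log2 change was 0.5, 78% where it was 1, and 92% where it was 2. The simulation made 176 calls, against 2123 in the data, so the adjusted cut-off differed. Vessel genes also had a larger median pooled SD (0.31) than all genes (0.22), so these rates need not hold for them. The members, lists and tests were chosen with earlier results of these data known. Named are all vessel genes, Senp2, the markers fixed for endothelium and, of each further vessel list, up to 3 genes that passed, by smallest adjusted p. Other names are said to be chosen after their values were seen, or are markers not well above background. Further marker lists gave no vessel result: of adipocyte markers 1 of 8 fell (12.5%, against 7.12% of all genes), and of Schwann cell markers 1 of 5 rose (20%, against 7.29%). Of red blood cell markers 0 of 4 and of mesothelial markers 0 of 1 passed, against 14.4% of all genes. Alternatives were quantile normalisation, median centring, the normexp background model of limma with an offset of 50, other background filters, the mean of a gene's probes, array weights, a replicate block and leaving out each array.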

Additional observations from a re-analysis of the deposited data

Results flagged for a closer look

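In 8 of 140 groups of 4 samples (5.71%) of the named genes, 1 array lay far from the other 3 by Dixon's test, where chance gives about 5%. Among vessel genes, Vegfc was lowest in control 4 (0.36, with the other controls at 1.09 to 1.22), Flt4 highest in aKO 2 (-1.93, the others at -4.14 to -3.86) and Angpt2 lowest in control 1 (0.63, the others at 1.2 to 1.3). Eng was highest in control 3 (2.66, the others at 2.27 to 2.28), Dll4 highest in aKO 3 (-1.21, the others at -2.17 to -2.08) and Notch4 lowest in control 1 (2.15, the others at 2.39 to 2.44). In the further lists, Arhgef15 was lowest in aKO 3 (2.6, the others at 2.87 to 2.92) and Ndrg1 highest in aKO 2 (5.07, the others at 4.86 to 4.88).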

How the results depend on the processing

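Fold changes kept their sign for all 9 vessel genes that passed, under the 16 alternatives run, and the calls of Efnb2 and Pdpn held in each. The alternative that names probes by a gene name column was not run, because the files hold no such column. On leaving out an array, the count of genes called ranged from 714 to 2828 (2123 as reported), that of vessel genes called higher from 1 to 4 and lower from 1 to 10, and the lymphatic median from 0.19 to 0.89, and the low end came without aKO 2. The lymphatic median was 0.36 with array weights and 0.47 with the normexp background model, and the blood vessel median ranged from -0.22 to -0.02 over the omissions. With array weights 3763 genes were called, and with the replicate block 1294. The labels state no pairing by replicate number. Deviations from the group means correlated at -0.02, -0.08, 0.14 and 0.11 between same-numbered samples. The samples aKO 3 and aKO 4 correlated best with the control of their own number, and aKO 1 and aKO 2 did not. These 4 correlations cannot settle whether samples were paired. With the block, Vegfc and Sox17 among the vessel genes did not pass. The Senp2 difference passed with quantile normalisation (-0.26), median centring (-0.37), the normexp background model (-0.31), the filter on all arrays of a group (-0.27) and array weights (-0.25), and ranged from -0.30 to -0.25 over the omissions. Differences near 0 changed sign: with median centring Pecam1 (-0.065), Sox18 (-0.045) and Notch4 (-0.00024), with array weights Kdr (0.028), Cdh5 (0.074), Robo4 (0.0068) and Gja4 (0.074), and for Kdr also with the mean of its probes (0.049) and its other probe (0.13), the last added after the data were seen. Over the omissions, ranges that crossed 0 were Angpt1 -0.23 to 0.19, Cdh5 -0.12 to 0.069, Gja4 -0.22 to 0.12, Kdr -0.088 to 0.037, Notch4 -0.0069 to 0.23, Pecam1 -0.090 to 0.14, Sox18 -0.13 to 0.32 and Vwf -0.20 to 0.024. The causes were not tested.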
